A study of Mus musculus with 6 samples.

Results

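The antioxidant and NRF2 defence genes were 35 rows, picked by symbol from a list, of the 24315 rows in a table of gene expression from mouse hearts. The list was made with earlier results of these data known, and all 35 symbols were found. The hearts came from male mice aged 6 weeks on a C57Bl6J background. In the cKO group (n = 3) both cyclin C alleles were floxed (fl/fl) and an aMHC cre transgene was present, so that Cre is made in heart muscle cells. In the fl/fl group (n = 3) the floxed alleles were present without Cre. Cre and the deletion therefore differed together, and the other cell types of a cKO heart keep the floxed gene intact. Cyclin C belongs to the kinase module of Mediator, the coactivator through which transcription factors reach RNA polymerase II. The question is how heart transcripts change once cardiomyocytes lack it. Expression was given as FPKM, fragments scaled to transcript length and library size, which allows levels of different genes to be set side by side.

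A heart beats on oxidative metabolism, and its mitochondria release superoxide as a by-product. Superoxide dismutases turn superoxide into hydrogen peroxide, which catalase, glutathione peroxidases and peroxiredoxins turn into water. Glutathione is the electron donor of most glutathione peroxidases and thioredoxin that of most peroxiredoxins, and catalase uses neither. The transcription factor NRF2 (Nfe2l2) is held down by its sensor Keap1, which hands it over for degradation. When Keap1 is modified by oxidants or electrophiles, NRF2 enters the nucleus and, with a small Maf protein, binds antioxidant response elements near genes for glutathione synthesis, quinone reduction and thioredoxin recycling.

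The core of the antioxidant response element was searched as TGACNNNGC on both strands in promoters from RefSeq (build GRCm38.p6), which run from 250 bases before to 50 bases after a gene's start. Promoters of 29 of the 35 genes were in that table. A match was present for 7 of the 29 (24.1%), against 14% of all 27025 genes there. A gene counted when any of its promoters matched. The 29 genes had 41 promoters and all genes 32851, of which 12.4% matched, so the shares by gene are not fully comparable. The difference was not tested. The genes with a match were Nfe2l2, Srxn1, Gclm, Prdx1, Mgst1, Txnrd1 and Sod1, and that of Srxn1 lay after the start. The other 6 are shown because they set genes with low readings in cKO hearts, such as Prdx1 and Mgst1, beside genes with near-equal readings, such as Gclm and Txnrd1. Each stretch is read 5′ to 3′ on the gene's strand, with the match in capitals.
Prdx1: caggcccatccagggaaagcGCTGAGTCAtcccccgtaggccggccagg
Mgst1: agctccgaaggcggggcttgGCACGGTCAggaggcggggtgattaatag
Sod1: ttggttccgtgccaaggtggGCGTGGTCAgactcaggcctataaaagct
Gclm: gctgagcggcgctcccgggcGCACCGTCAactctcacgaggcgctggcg
Txnrd1: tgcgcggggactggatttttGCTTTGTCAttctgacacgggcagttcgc
Nfe2l2: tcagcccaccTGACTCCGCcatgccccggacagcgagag
They lie at chr4:116685446-116685494 (plus strand) for Prdx1, chr6:138140451-138140499 (plus strand) for Mgst1, chr16:90220686-90220734 (plus strand) for Sod1, chr3:122245403-122245451 (plus strand) for Gclm, chr10:82859094-82859142 (plus strand) for Txnrd1 and chr2:75704875-75704913 (minus strand) for Nfe2l2. The match ended 125 bases before the start in Prdx1, 48 bases before it in both Mgst1 and Sod1, 126 in Gclm, 84 in Txnrd1 and 232 in Nfe2l2. In the first 5 of these genes the element ran on the strand opposite to the gene, and in Nfe2l2 on the same strand. A match is a string of letters and does not show that NRF2 binds there.

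Cyclin C itself (Ccnc) read 5.81, 5.70 and 4.53 FPKM in cKO 1 to 3, against 8.48, 7.60 and 10.8 FPKM in fl/fl 1 to 3, without passing the test (adjusted p = 0.144, limma). The row of Ccnc shares a stretch with Tstd3, so its reads may not be fully separable. Summed FPKM of the libraries was 589196 to 616158 in cKO and 627881 to 768960 in fl/fl, with fl/fl 2 the highest. Read numbers are unknown. Judged by the steps between low values, depth relative to fl/fl 1 was 1.01 to 1.10 in cKO and 0.885 and 0.902 in the other fl/fl libraries. Of 12 ventricular cardiomyocyte markers 10 had a negative change, Ryr2 and Mb passing the test, and their summed level was 51230 to 58100 FPKM in cKO and 76690 to 104800 FPKM in fl/fl. Among 10 atrial markers 9 were negative, with Bmp10 and Sbk2 passing, and their sums were 1240 to 4262 FPKM in cKO and 3634 to 6423 FPKM in fl/fl. All 10 endothelial and all 10 fibroblast markers were positive without any passing, with sums of 1899 to 2468 FPKM in cKO and 1528 to 2229 FPKM in fl/fl for the endothelial list, and of 2043 to 2299 FPKM in cKO and 1799 to 2042 FPKM in fl/fl for the fibroblast list. In fl/fl 1 the adipocyte markers summed to 827.7 FPKM, against 149.9 to 163.7 FPKM in cKO and 140.6 and 141.2 FPKM in the other fl/fl libraries, and the lymphocyte markers to 77.2 FPKM, against at most 8.23 FPKM elsewhere. Of the adipocyte markers 9 of 10 tested were negative, and of the lymphocyte markers 6 of 8, none passing. The adipocyte marker Adipoq read 56.4 FPKM in fl/fl 1, against at most 2.05 FPKM in cKO, and the lymphocyte marker Rag1 read 14.6 FPKM in fl/fl 1, against at most 0.519 FPKM in cKO and 0.01 FPKM, the lowest value of the file, in the other fl/fl libraries. Macrophage markers, 8 of 10 negative, summed to 420.6 to 462.1 FPKM in cKO and 434.4 to 505.3 FPKM in fl/fl, and erythroid markers, all 6 tested positive, to 1305 to 2116 FPKM in cKO and 1266 to 1730 FPKM in fl/fl, none passing. In whole hearts, fewer cells of a type and less RNA per cell cannot be told apart, and the part of these shifts in the results on antioxidant genes was not tested.

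No antioxidant gene passed the test over all genes. In limma on log2(FPKM + 1), 0 of the 35 had an adjusted p under 0.05, where 0.587% of 12103 tested genes did. The lowest adjusted p was 0.162, for Prdx1. At an unadjusted p under 0.05 there were 9 of the 35, where 12.7% of all tested genes reached that level. Of these, 8 read lower in cKO hearts and 1 higher, where 6.37% and 6.34% of all tested genes did. In the authors' deposited table, made with Cuffdiff, 3 of the 35 had a q-value under 0.05, where 3.77% of 12587 genes did. All 3 were lower in cKO, where 2.08% of those genes were called lower and 1.68% higher. These 3 were the membrane-bound glutathione transferases Mgst1 (q = 0.00301) and Mgst3 (q = 0.00752) and the peroxiredoxin Prdx1 (q = 0.0159). The genotypes did not overlap for 14 of the 35 genes, where 20.4% of all tested genes had no overlap. All 3 cKO libraries read below all 3 fl/fl libraries for 11 of the 35 genes, where 10.3% of all tested genes did, and above them for 3, where 10.1% did. The median log2 change of the 35 genes was -0.172, with 23 negative and 12 positive, against -0.002 for all tested genes. Of all tested genes 50.4% were negative.

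**Figure D1:**
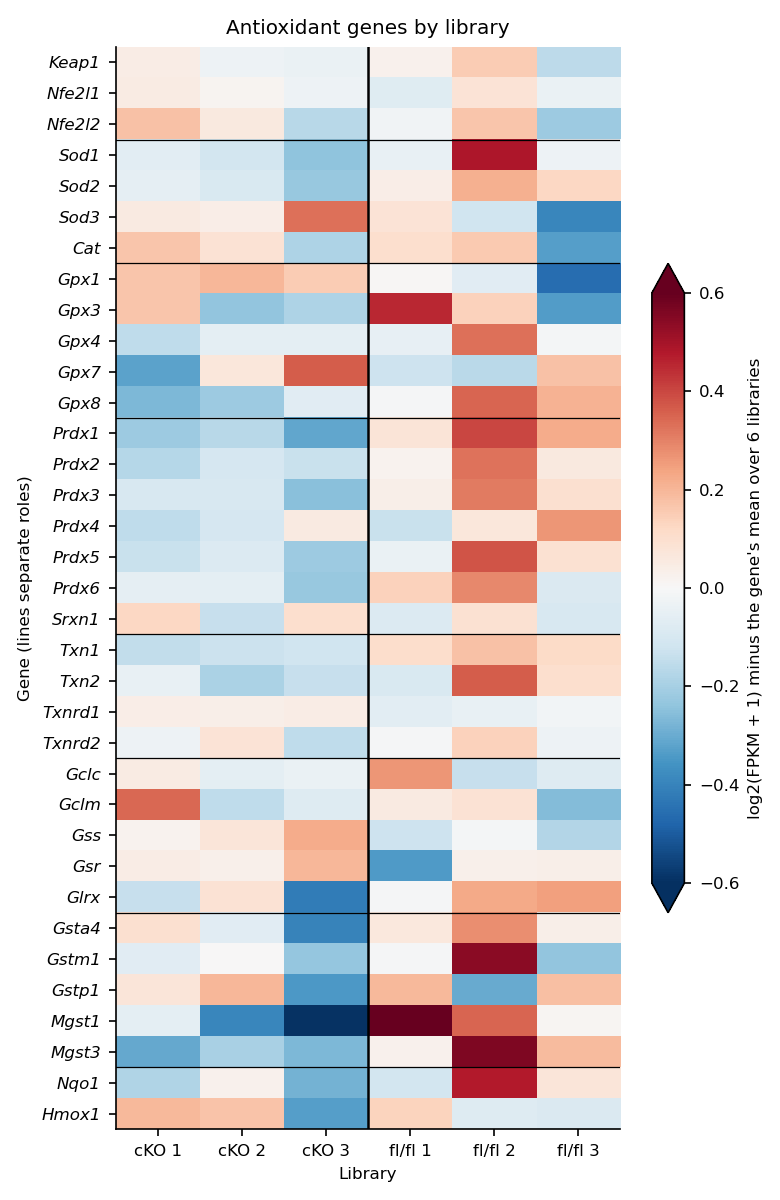
Level of each antioxidant gene (rows, in blocks by role) in each library (columns) as log2(FPKM + 1) minus the gene's mean over the 6 libraries, with red above and blue below that mean. The peroxiredoxins other than Prdx4, and Mgst3, are blue across the 3 cKO columns and mostly reddest in fl/fl 2, the library with the highest reading for 18 of the 35 genes, whereas Keap1, Nfe2l1 and Txnrd1 stay pale throughout.

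The sensor and the transcription factors showed almost equal readings. Keap1, the sensor, read 24.8, 23.5 and 23.3 FPKM in cKO 1 to 3 and 24.5, 26.8 and 21.4 FPKM in fl/fl 1 to 3. Nfe2l2, the NRF2 gene, read 46.7, 43.0 and 36.6 FPKM in cKO and 40.6, 46.4 and 35.3 FPKM in fl/fl. Nfe2l1, a related factor known for driving proteasome genes, was the most abundant of the 3 at 161.2, 157.5 and 152.7 FPKM in cKO and 148.1, 165.0 and 151.6 FPKM in fl/fl. Genotypes overlapped for each of them. The 95% intervals of the log2 change ran from -0.26 to 0.22 for Keap1, from -0.26 to 0.35 for Nfe2l2 and from -0.19 to 0.23 for Nfe2l1 (limma, adjusted p = 0.956, 0.913 and 0.938). Transcript levels say nothing of NRF2 protein, which Keap1 controls after translation.

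None of the classic NRF2 targets passed, and their signs were mixed. Nqo1, a quinone reductase, read 36.3, 42.1 and 33.8 FPKM in cKO 1 to 3 and 38.3, 58.0 and 43.6 FPKM in fl/fl 1 to 3. Hmox1, the inducible heme oxygenase, was low at 8.92, 8.75 and 5.89 FPKM in cKO and 8.50, 7.23 and 7.16 FPKM in fl/fl. Both pairs of groups overlapped, with changes of -0.29 (SE 0.16) for Nqo1 and 0.02 (SE 0.16) for Hmox1. Without fl/fl 2 that of Nqo1 was -0.13. The row of Nqo1 spans a stretch that the files also give to Nfat5, Wwp2, Nob1 and Mir140, so its reads may not be fully separable. Gclc and Gclm, the catalytic and modifier subunits of the enzyme that limits glutathione synthesis, likewise overlapped. Gclc read 7.44, 6.82 and 6.93 FPKM in cKO and 8.78, 6.41 and 6.72 FPKM in fl/fl. Gclm read 18.0, 12.5 and 13.1 FPKM in cKO and 14.5, 14.9 and 11.5 FPKM in fl/fl, with cKO 1 the highest of the 6. Srxn1, sulfiredoxin, which repairs over-oxidised peroxiredoxins, stood at 10.3, 8.41 and 10.1 FPKM in cKO and 8.78, 10.04 and 8.71 FPKM in fl/fl. Txnrd1, the cytosolic thioredoxin reductase, was the one target of this kind whose groups did not overlap, although the readings were close, at 23.5, 23.4 and 23.6 FPKM in cKO and 21.9, 22.2 and 22.6 FPKM in fl/fl. Its log2 change was 0.08 with a 95% interval from -0.10 to 0.26 (limma, adjusted p = 0.705), and its row shares a stretch with Eid3.

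**Figure D2:**
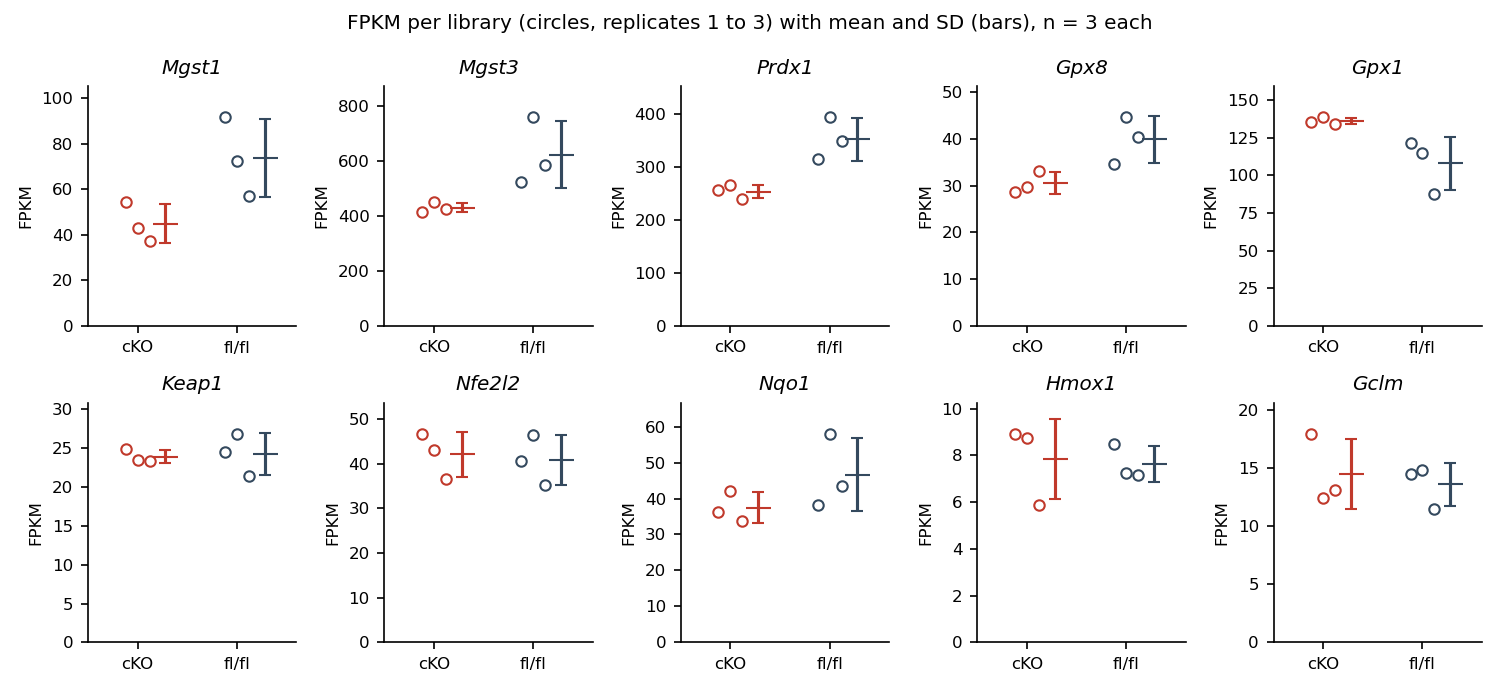
FPKM per library (circles, replicates 1 to 3 from left to right within each group) for 10 genes, with the cKO group left of the fl/fl group and the mean and SD (n = 3 each) beside the circles. In the upper row the groups do not overlap, with cKO below fl/fl for Mgst1, Mgst3, Prdx1 and Gpx8 and above it for Gpx1, and in the lower row they overlap for Keap1, Nfe2l2, Nqo1, Hmox1 and Gclm.

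Glutathione transferases join glutathione to reactive lipids and drugs, and all 5 on the list had a negative change. Of all tested genes 50.4% had one, and the change of Gstp1 was only -0.05. Mgst1 showed the lowest ratio of the 35 genes. It read 54.4, 43.0 and 37.3 FPKM in cKO 1 to 3, against 91.6, 72.5 and 57.1 FPKM in fl/fl 1 to 3. The groups did not overlap, but the highest cKO and the lowest fl/fl reading lay close together. Group means were 44.9 ± 8.70 FPKM in cKO and 73.7 ± 17.3 FPKM in fl/fl (SD, n = 3 each), a ratio of 0.609 and a log2 change of -0.69 (SE 0.19, adjusted p = 0.218 in limma). Its highest reading was in fl/fl 1, the library with the raised adipocyte markers, and without that library the change was -0.53. Mgst3, the related enzyme of the same membrane family, was far more abundant. It read 416.0, 449.8 and 426.4 FPKM in cKO and 523.2, 759.0 and 586.4 FPKM in fl/fl, so the cKO hearts lay within a narrow band below all fl/fl hearts. The change was -0.51 (SE 0.15, adjusted p = 0.229 in limma), and -0.36 without fl/fl 2, its highest library. For the soluble enzymes the groups overlapped. Gsta4, which clears the lipid aldehyde hydroxynonenal, averaged 69.4 ± 11.96 FPKM in cKO and 82.1 ± 7.78 FPKM in fl/fl. Gstm1 averaged 145.8 ± 12.02 FPKM in cKO and 171.3 ± 49.5 FPKM in fl/fl, and Gstp1 90.8 ± 17.2 FPKM in cKO and 93.9 ± 17.5 FPKM in fl/fl (SD, n = 3 each). Both have close paralogs, so their reads could be split, and neither kept its sign in all settings. The change of Gstm1, -0.20, became 0.02 without fl/fl 2. That of Gstp1 ran from -0.21 to 0.19 over the alternative settings. Gstp1 was high in fl/fl 1 and 3 and low in fl/fl 2, at 104.6, 103.4 and 73.8 FPKM, unlike the peroxiredoxins.

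Peroxiredoxins reduce hydrogen peroxide through a reactive cysteine, and all 6 had a negative change while their repair enzyme Srxn1 had a slightly positive one. Prdx1, a cytosolic form, read 255.7, 265.1 and 240.0 FPKM in cKO 1 to 3, against 314.1, 393.7 and 348.1 FPKM in fl/fl 1 to 3. The highest cKO heart lay well below the lowest fl/fl heart. Means were 253.6 ± 12.7 FPKM in cKO and 352.0 ± 39.9 FPKM in fl/fl (SD, n = 3 each), a log2 change of -0.47 with a 95% interval from -0.73 to -0.20 (adjusted p = 0.162 in limma). The files place a second row, AV051173, on the stretch of Prdx1. Prdx2, abundant in the cytosol and in red cells, read 358.1, 375.2 and 367.6 FPKM in cKO and 408.4, 504.2 and 419.4 FPKM in fl/fl. Prdx3, the mitochondrial form, read 265.3, 264.5 and 237.5 FPKM in cKO and 290.0, 351.9 and 303.1 FPKM in fl/fl. Prdx5, found in mitochondria, peroxisomes and cytosol, read 537.3, 556.6 and 506.2 FPKM in cKO and 573.4, 764.6 and 627.9 FPKM in fl/fl. None of these 3 overlapped between genotypes, and in each the fl/fl 2 heart stood apart above the rest. Their log2 changes were -0.27 (SE 0.11), -0.30 (SE 0.11) and -0.29 (SE 0.13). Without fl/fl 2 they were -0.17 for Prdx2, -0.21 for Prdx3 and -0.17 for Prdx5. Like Prdx1, these 3 genes averaged over 100 FPKM. At that level 73.0% of all tested genes had a negative change, and for 24.1% all cKO libraries lay below all fl/fl libraries. Prdx4, of the endoplasmic reticulum, and Prdx6, which also acts on phospholipids, overlapped. Prdx4 averaged 27.7 ± 2.20 FPKM in cKO and 30.6 ± 4.34 FPKM in fl/fl, and Prdx6 84.3 ± 5.74 FPKM in cKO and 99.3 ± 12.9 FPKM in fl/fl (SD, n = 3 each).

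Thioredoxin carries electrons from NADPH to the peroxiredoxins. Txn1, the cytosolic form, read 74.9, 75.9 and 76.3 FPKM in cKO 1 to 3 and 89.3, 93.8 and 89.9 FPKM in fl/fl 1 to 3. Both groups were tight and did not overlap, and fl/fl 2 did not stand apart here. The change was -0.26 (SE 0.08, adjusted p = 0.258 in limma). Txn2, the mitochondrial form, read 222.8, 201.4 and 208.3 FPKM in cKO and 215.5, 295.8 and 246.3 FPKM in fl/fl, so cKO 1 passed fl/fl 1. Txnrd2, its reductase, overlapped too, at 20.05 ± 1.71 FPKM in cKO and 21.1 ± 1.43 FPKM in fl/fl (SD, n = 3 each). The 4 genes of the list whose products work mainly in mitochondria (Sod2, Prdx3, Txn2 and Txnrd2) all had a negative change, with a median of -0.25. That of Txnrd2 was only -0.07, and all 4 read highest in fl/fl 2. Gpx1 and Prdx5, found in mitochondria and elsewhere, were not counted among them and had changes of 0.35 and -0.29. Sod2, Prdx3 and Txn2 averaged over 100 FPKM, a level at which 73.0% of all tested genes had a negative change.

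**Figure D3:**
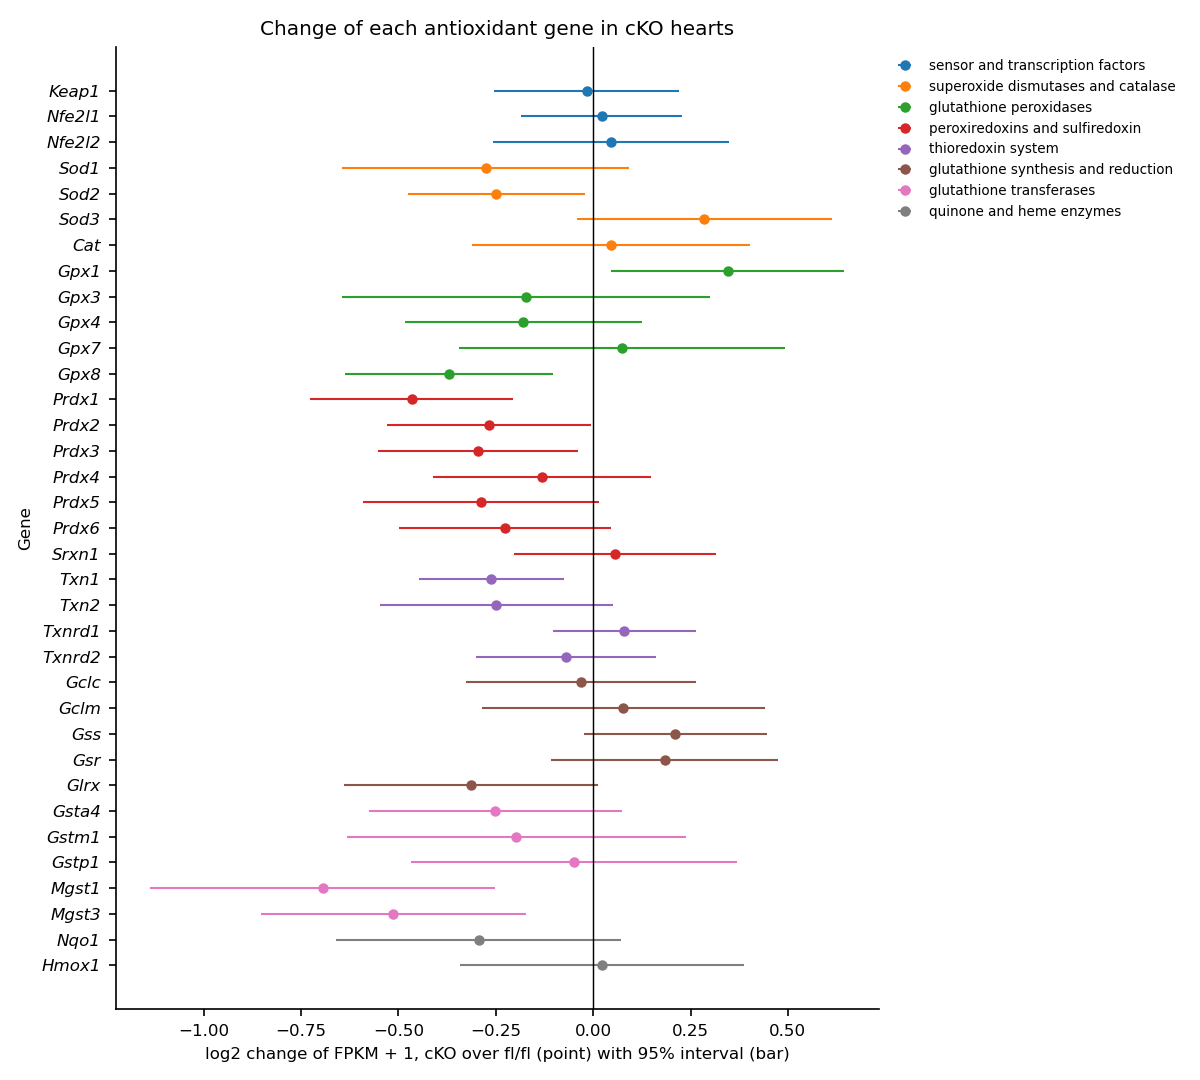
Log2 change of FPKM + 1 in cKO over fl/fl hearts (points) with its 95% interval from limma (bars) for the 35 genes, coloured by role. The intervals of Mgst1, Mgst3, Prdx1 and Gpx8 lie below 0, as do those of Txn1, Prdx2, Prdx3 and Sod2, and that of Gpx1 above it before adjustment for 12103 genes, and those of Keap1, Nfe2l1 and Nfe2l2 span it.

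Signs were mixed among the 5 glutathione peroxidases, 3 negative and 2 positive. Gpx1, the main cytosolic and mitochondrial selenoenzyme, was the clearest reading in the opposite direction. It read 135.7, 138.7 and 134.5 FPKM in cKO 1 to 3, against 121.3, 115.0 and 87.8 FPKM in fl/fl 1 to 3. The cKO hearts were nearly identical and lay above all fl/fl hearts, which spread widely through fl/fl 3. The change was 0.35 with a 95% interval from 0.05 to 0.64 (adjusted p = 0.335 in limma), and 0.205 without fl/fl 3. Gpx4, which reduces lipid peroxides in membranes and guards against ferroptosis, was the most abundant of the 35 genes. It read 680.3, 726.3 and 725.1 FPKM in cKO and 731.2, 949.5 and 749.0 FPKM in fl/fl. The groups did not overlap, yet cKO 2 and fl/fl 1 were almost equal, and without fl/fl 2 the change of -0.18 became -0.06. Gpx8, a membrane peroxidase of the endoplasmic reticulum, read 28.6, 29.8 and 33.1 FPKM in cKO and 34.6, 44.6 and 40.4 FPKM in fl/fl. It did not overlap, its change was -0.37 (SE 0.12, adjusted p = 0.261 in limma), and its row shares a stretch with Cdc20b and 3 miRNA genes. Gpx3, the secreted form, overlapped at 323.8, 244.6 and 253.7 FPKM in cKO and 395.9, 318.1 and 228.5 FPKM in fl/fl, with the highest reading in fl/fl 1. Without fl/fl 1 its change of -0.17 became 0.01. Gpx7, of the endoplasmic reticulum, averaged 9.82 ± 2.52 FPKM in cKO and 9.14 ± 1.34 FPKM in fl/fl (SD, n = 3 each).

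Among the superoxide dismutases and catalase no gene passed, and signs were mixed. Sod2, the manganese enzyme of the mitochondrial matrix, read 200.03, 194.8 and 177.1 FPKM in cKO 1 to 3 and 213.3, 240.5 and 226.1 FPKM in fl/fl 1 to 3. Sod1, the copper and zinc enzyme of the cytosol, read 527.2, 509.7 and 464.7 FPKM in cKO and 533.3, 771.2 and 538.8 FPKM in fl/fl. Neither overlapped, but for Sod1 the separation was small apart from fl/fl 2, and the change was -0.28 with that library and -0.10 without it. Sod3, the extracellular enzyme, had the opposite sign at 28.01, 27.7 and 34.1 FPKM in cKO and 28.6, 24.7 and 20.3 FPKM in fl/fl, with fl/fl 1 above cKO 1 and cKO 2. Catalase (Cat), which breaks down hydrogen peroxide in peroxisomes, read 142.2, 134.3 and 111.2 FPKM in cKO and 135.8, 141.3 and 100.5 FPKM in fl/fl. Replicate 3 was the lowest in both genotypes, and the groups overlapped. Adjusted p in limma was 0.363 for Sod2, 0.5003 for Sod1, 0.441 for Sod3 and 0.924 for Cat.

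In the last step of glutathione synthesis and in its recycling no gene passed, with Gss and Gsr positive and Glrx negative. Gss, glutathione synthetase, read 9.64, 10.04 and 11.3 FPKM in cKO 1 to 3 and 8.62, 9.41 and 8.28 FPKM in fl/fl 1 to 3, a small gap with no overlap (log2 change 0.21, SE 0.10). Gsr, glutathione reductase, read 11.8, 11.7 and 13.2 FPKM in cKO and 8.81, 11.6 and 11.7 FPKM in fl/fl. Here cKO 2 and fl/fl 3 were equal to within the rounding, and the groups overlapped. Glrx, the glutaredoxin that removes glutathione from proteins, averaged 26.6 ± 4.76 FPKM in cKO and 33.0 ± 3.23 FPKM in fl/fl (SD, n = 3 each), again with overlap. Adjusted p in limma was 0.426 for Gss, 0.570 for Gsr and 0.411 for Glrx.

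Abundant genes as a class read lower in cKO hearts, a comparison chosen after the values were seen. At a mean of at least 100 FPKM, 11 of 14 antioxidant genes (78.6%) had a negative change, as did 619 of 848 tested genes (73.0%). The medians were -0.248 for the antioxidant genes and -0.121 for all genes of that abundance. Under 100 FPKM, 12 of 21 antioxidant genes (57.1%) were negative, as were 48.6% of 11255 tested genes, with medians of -0.031 and 0.007. The cKO libraries lay below all fl/fl libraries for 8 of the 14 abundant antioxidant genes, and for 24.1% of all abundant genes. The highest reading was in fl/fl 2 for 11 of the 14, and for 73.7% of the abundant genes.

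**Figure D4:**
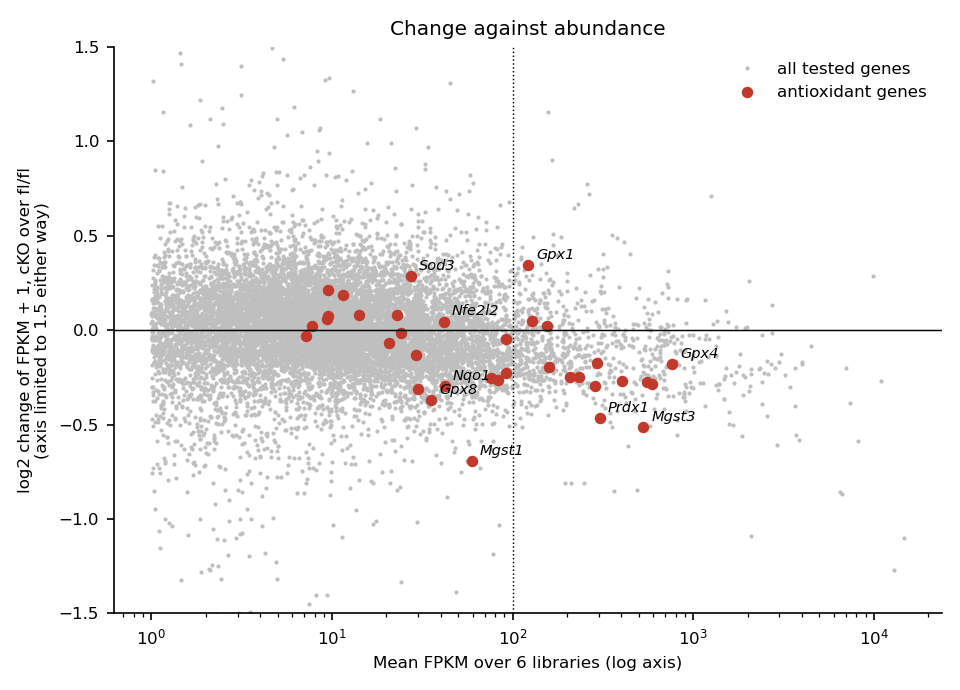
Log2 change of FPKM + 1 in cKO over fl/fl hearts (vertical) against mean FPKM over the 6 libraries (horizontal, log axis) for all 12103 tested genes (grey, vertical axis limited to 1.5 either way) and the 35 antioxidant genes (red), with a dotted line at 100 FPKM. Right of that line most grey and red points lie below 0, and Gpx1 stands above it, while Mgst1 lies low at a lesser abundance.

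The median of -0.172 over the 35 genes became -0.097 with quantile normalization, which gives all libraries the same distribution, and -0.108 without fl/fl 2. With quantile normalization the change was -0.64 for Mgst1, -0.37 for both Mgst3 and Prdx1, -0.33 for Gpx8, -0.14 for Sod1 and 0.43 for Gpx1. Under that scaling 14 of the 35 genes had no overlap, where 21.2% of all tested genes had none. Of the 35 genes 23 had the same sign in all 17 alternative settings, 18 of them negative (among them all 6 peroxiredoxins, Mgst1, Mgst3, Gpx4 and Nqo1) and 5 positive (Gpx1, Sod3, Txnrd1, Gss and Gsr). Several settings could not alter a sign, because filter, variance model and replicate terms left the log2 change as it was. For the 14 genes without overlap, leaving out libraries could not alter it either. The count therefore says little on stability, and the same share over all tested genes was not counted.

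**Figure D5:**
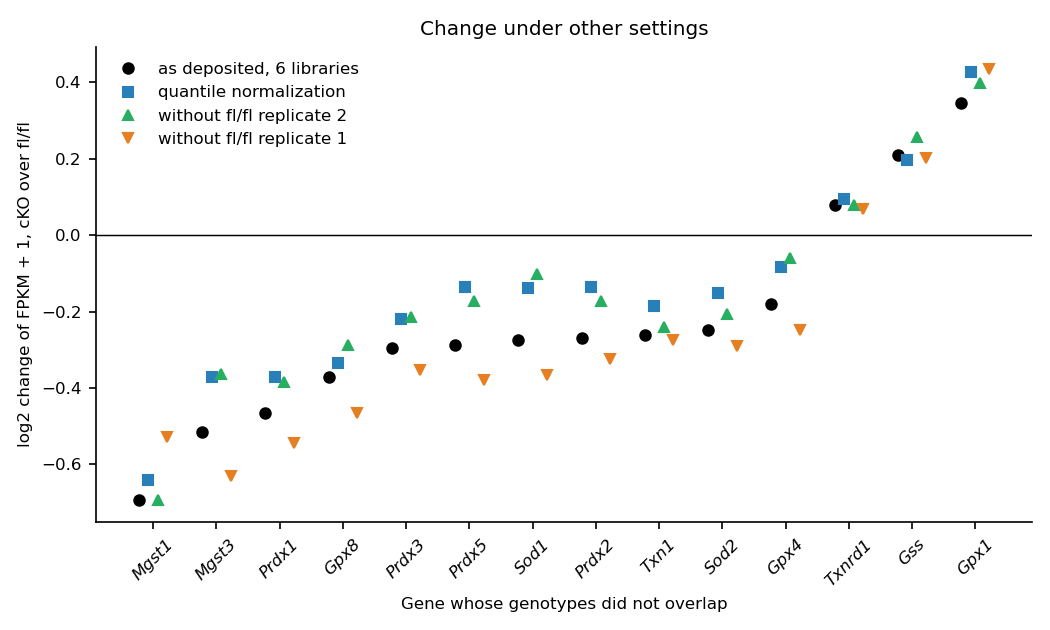
Log2 change of FPKM + 1 in cKO over fl/fl hearts for the 14 genes whose genotypes did not overlap, as deposited (circles), with quantile normalization (squares), without fl/fl replicate 2 (upward triangles) and without fl/fl replicate 1 (downward triangles). Squares and upward triangles lie nearer to 0 than the circles for most negative genes, such as Sod1 at -0.138 and -0.101 against -0.275. All 14 keep their sign, which leaving out a library could not change where genotypes did not overlap.

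Beyond the 35 genes, 143 others from a list of NRF2 partners, further NRF2 targets, NADPH supply, glutathione and thiol enzymes and sources of reactive oxygen species were in the table, and 118 were tested. There 1 was called lower and 0 higher, where 0.223% and 0.364% of all tested genes were, and the median was -0.063. The gene was Akr1b10, an aldo-keto reductase whose human namesake is an NRF2 target. It read 35.9, 40.4 and 38.3 FPKM in cKO 1 to 3, against 57.3, 67.9 and 70.1 FPKM in fl/fl 1 to 3, a fall of -0.75 (SE 0.11, adjusted p = 0.0349 in limma). The groups lay far apart, but the call ended without any one of cKO 1 (adjusted p = 0.148), cKO 2 (0.134), cKO 3 (0.109), fl/fl 2 (0.0955) or fl/fl 3 (0.104), and it has paralogs, Akr1b3 and Akr1b8, with positive changes of 0.32 and 0.22. Without fl/fl 1 the adjusted p was 0.0341, and over the 17 alternative settings it ran from 0.0102 to 0.229, with 9 of them under 0.05.

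Other genes with small p-values in that list lay in both directions without passing. Ggct, which breaks down glutathione products, read 7.80, 8.73 and 9.48 FPKM in cKO and 11.7, 16.9 and 16.0 FPKM in fl/fl. Me3, the mitochondrial NADP-linked malic enzyme, averaged 18.9 ± 2.15 FPKM in cKO and 29.5 ± 4.07 FPKM in fl/fl. Ucp3, a mitochondrial carrier, was higher at 63.1 ± 10.3 FPKM in cKO and 37.9 ± 5.41 FPKM in fl/fl (SD, n = 3 each). Adjusted p in limma was 0.114 for both Ggct and Me3 and 0.108 for Ucp3. Without fl/fl 1 that of Ggct was 0.0466. Cbr3, a carbonyl reductase, read 3.54, 4.30 and 3.73 FPKM in cKO and 2.47, 2.39 and 2.63 FPKM in fl/fl, and Abcc4, an export pump, averaged 4.25 ± 0.155 FPKM in cKO and 3.14 ± 0.437 FPKM in fl/fl (SD, n = 3 each). In both the cKO hearts lay above all fl/fl hearts.

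By group, the 12 tested NRF2 partners and degradation genes were even, with 6 positive and 6 negative and a median of 0.034. The 21 further NRF2 targets had 13 positive and 8 negative signs (median 0.091). Of 24 other glutathione enzymes 18 were negative (median -0.192), and of 11 NADPH-supplying enzymes 8 (median -0.132), where 50.4% of all tested genes were. The highest reading was in fl/fl 2 for 12 of these glutathione enzymes, 6 of these NADPH-supplying enzymes and 28.6% of all tested genes. Of 34 thiol and repair enzymes 21 were negative (median -0.063), and the 16 sources of reactive oxygen species were even at 8 each. The authors' deposited table called 9 of the 118, where it called 3.77% of 12587 genes. Lower in cKO were Akr1b10, Me3, Ggct, Gstm7, Sesn1 and Maob, where 2.08% of those genes were called lower, and higher were Ucp3, Mt2 and Nos2, where 1.68% were.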

How the data were processed

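Whole-heart RNA was sequenced from 3 cKO and 3 fl/fl mice. Alignment was to mm10 with TopHat (version 1.0.0), per the submitters' processing notes, and transcripts were quantified with Cufflinks and Cuffdiff. FPKM per gene and library, and Cuffdiff p-values and q-values per gene, were deposited by the authors. The lowest deposited FPKM is 0.01, standing in for 0. Whether counting used strand is not stated in the labels. Of the 35 genes' positions in the files, 4 overlapped the RefSeq position in GRCm38.p6, so the files' build is not settled and their coordinates are not printed.

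The values used were log2(FPKM + 1). The two-sided limma test (limma 3.58.1, R 4.3.3, intensity trend) compared cKO with fl/fl for the 12103 genes whose FPKM averaged at least 1, and p-values were adjusted over all of them by Benjamini-Hochberg, with 0.05 as the threshold. Fold changes on this scale understate those of low genes. On simulated data the test called 4% of genes with a log2 change of 0.3 and 24% at 0.5. At 1 it called 72% and at 2 it called 96%. In that simulation most changes of 0.3 or 0.5 were missed. How far this holds for the real libraries was not tested, and a gene not called may still differ. One row with a failed value was left out, and 27 rows named as dates were kept unnamed. P-values set the difference between groups against the spread between animals, which limma draws towards a trend over all genes. With 3 hearts against 3, an exact permutation test of 1 gene could not reach 0.05, so none was used. The 35 genes and all lists were chosen with earlier results of these data known. Genes were given in full where their groups did not overlap with a log2 change of at least 0.3 either way, or as NRF2 sensor, factors or classic targets, and others were added. Of the wider list, the 3 smallest p-values per direction were named, with those the authors' table called. Alternatives covered pseudocount, filter, scaling, variance model, weights, replicate terms and each library left out. Figures used matplotlib 3.10.9.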

Additional observations from a re-analysis of the deposited data

How the results depend on the processing

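The count of genes called over all genes, 71 with 6 libraries, was 14 with no filter, 38 with no intensity trend, 123 with replicate 3 as a term, 13 within replicates 1 and 2 only, and 13 to 50 when each library was left out. Antioxidant genes called stayed at 0 in these settings, and the wider list, with 1 call, had 0 with no filter, with no intensity trend and within replicates 1 and 2, and 0 to 3 with a library left out. Deviations of same-numbered libraries correlated at 0.089, 0.271 and 0.429 for replicates 1, 2 and 3 over 12103 genes, all positive. Libraries with different numbers were not correlated, so these values cannot show whether the numbers pair the libraries. Whether same-numbered libraries share a batch was not tested. The labels do not name pairs or batches, and the main test took the libraries as unpaired. With the replicate number as a block 213 genes were called, 1 of the 35 (Mgst1, adjusted p = 0.0125) and 5 of the wider list (adjusted p = 0.0102 for Akr1b10, 0.0201 for Ggct, 0.0384 for Me3, 0.0387 for Ucp3 and 0.043 for Sesn1, limma). The median of the 35 genes ran from -0.23 to -0.108 and the genes without overlap from 15 to 20 with a library left out, where 28.2% to 34.6% of all tested genes had none.

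Signs changed for 12 genes in at least 1 setting. Keap1 was 0.007 with quantile normalization, 0.012 with upper-quartile scaling and 0.015 with array weights. Gstp1 was 0.01 and Hmox1 -0.011 with quantile normalization, and Gpx7 -0.022 with array weights. Within replicates 1 and 2 Cat was -0.003, Srxn1 -0.011 and Gstp1 0.189. With a library left out, log2 changes ran from -0.099 to 0.056 for Keap1, -0.01 to 0.068 for Nfe2l1, -0.052 to 0.141 for Nfe2l2, -0.107 to 0.15 for Cat, -0.383 to 0.012 for Gpx3, -0.089 to 0.254 for Gpx7, -0.108 to 0.092 for Gclc, -0.076 to 0.173 for Gclm, -0.365 to 0.024 for Gstm1, -0.212 to 0.111 for Gstp1 and -0.07 to 0.193 for Hmox1. The cause was not tested. FPKM without read numbers give no counting interval, so precision at the low genes (Hmox1, Gclc, Gpx7, Srxn1) rests on the 3 hearts per group.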
